A study of Mus musculus with 12 samples.

Results

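Store-operated calcium entry, the route by which T cells refill their calcium after antigen receptor signalling, was followed at the messenger RNA level through 10 genes. These are the store calcium sensors Stim1 and Stim2, the plasma membrane channel subunits Orai1, Orai2 and Orai3, the inositol trisphosphate (IP3) receptors Itpr1, Itpr2 and Itpr3, the IP3 kinase Itpkb, and Saraf, a brake on STIM. They are a list of named genes, and all 10 were matched by Ensembl ID among the 45706 genes of the count table. Polyadenylated RNA of mouse T cells had been sequenced in 4 groups of 3 libraries each: conventional T cells of WT genotype, conventional T cells of Coronin1A knockout (KO) genotype, and regulatory T cells of either genotype. Coro1a encodes coronin 1, an actin-binding protein of blood cells. The comparisons ask how each gene's level depended on that deletion and on the type of T cell. The knockout allele, strain, age, markers used for sorting and any treatment are not given in the sources used here. Nothing in the labels says that the replicates came from separate animals or cultures. Sex-linked reads, given below, differed among the replicates of each group, so these did not all come from the same animals. How many animals each group holds is not known, and p-values may still measure technical spread in part.

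When the T cell receptor is engaged, phospholipase C-gamma cleaves a membrane lipid and releases IP3, which opens IP3 receptors in the endoplasmic reticulum and lets the stored calcium out. STIM proteins sense the emptied store from inside the reticulum, move to its contacts with the plasma membrane and open ORAI channels there. The calcium that enters activates calcineurin and, through it, the transcription factor NFAT. In T cells STIM1 and ORAI1 are known to carry most of this current. ORAI2 and ORAI3 can join ORAI1 in mixed channels, ITPKB ends the IP3 signal by adding a phosphate to it, and SARAF helps to close the channel once the store is full.

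Libraries held 19686870 to 33404302 reads counted in genes, and the 10 genes had 551 to 17086 reads per library. Annotated genes that overlap the 10 held few reads where they were in the table, at most 949 (Gm37033, within Itpkb) over all libraries against 131277 for Itpkb itself. Levels are in CPM, a gene's reads relative to all reads counted in its library, scaled with TMM factors, which set the bulk of genes equal between libraries. The deleted gene Coro1a fell from 2295 ± 149 to 45.2 ± 1.82 CPM in conventional and from 2509 ± 200 to 26.7 ± 5.07 CPM in regulatory libraries (SD, n = 3). Foxp3, the defining factor of regulatory T cells, was at 23.7 ± 3.07 CPM in WT conventional, 50.1 ± 18.9 in KO conventional, 520.1 ± 53.4 in WT regulatory and 573 ± 113 CPM in KO regulatory libraries. Markers of other cells were also present. Summed over 6 markers each, B cell genes stood at 3.66 and 31.2 CPM in WT and KO conventional libraries but at 3397 and 3465 CPM in regulatory ones, where the 6 T cell markers summed to 2079 and 1467 CPM. Macrophage and monocyte markers, 7 in number, went from 253 (range 223 to 292) to 2135 CPM (1428 to 3161) between WT and KO conventional libraries, neutrophil markers from 7.97 (4.74 to 12.4) to 466 (351 to 693), and NK cell markers from 67.9 (62.8 to 77.0) to 375 (269 to 507). Across WT conventional, KO conventional, WT regulatory and KO regulatory libraries, in that order, the means of the other lists were 164, 417, 1934 and 1883 CPM for regulatory T cell markers, 3.92, 58.8, 52.9 and 85.5 for dendritic cells, 45.3, 97.2, 16.5 and 36.0 for platelets and 4.43, 29.99, 5.61 and 17.5 for mast cells and basophils. None of the markers was at 0 in any group. The 6 T cell markers were lower with the knockout, from 3185 (3063 to 3352) to 2122 CPM (1949 to 2316) in conventional libraries. Since these are bulk samples, fewer T cells, less RNA per T cell and lower expression of these 6 genes in T cells cannot be told apart. Results are therefore given also after scaling the libraries to equal summed counts of those 6 genes (Lat, Cd5, Cd6 and the CD3 subunit genes Cd3d, Cd3e and Cd3g), which moved the median log2 fold change of all genes to 0.53 in both knockout comparisons, to 0.71 for regulatory against conventional cells in WT and to 0.62 in KO. In the conventional groups replicates 1 and 2 had Xist reads and replicate 3 Y-linked reads, in both genotypes. WT regulatory replicate 3 and KO regulatory replicate 1 held both kinds, each above 5 CPM, and results are given without these 2 libraries where they differ. The remaining regulatory libraries had Y-linked reads at 287 to 308 CPM and Xist at no more than 1.51 CPM.

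In conventional T cells most of the machinery was lower with the knockout and Orai3 alone was higher by TMM, whereas T cell gene scaling turned the sign of 8 of the 10 genes to higher. Of the 10 genes, all of which passed the filter on low counts, 7 fell and 1 rose at an edgeR adjusted p under 0.05, while Stim2 and Itpr1 did not pass. Over all 15922 genes tested 48.7% were called, 25.4% lower and 23.3% higher. By library, 8 genes lay wholly lower in KO, 1 wholly higher and 1, Stim2, overlapped, where 63.6% of all genes did not overlap (35.5% lower and 28.1% higher). The median log2 fold change was -0.30 over the 10 genes and -0.05 over all genes. Under T cell gene scaling, which called 44.4% of all genes, none of the 10 was called lower (background 0.377%), 2 were called higher (background 44.0%), namely Stim2 and Orai3, and the median of the 10 was 0.29 against 0.53 for all genes. Orai3 was the 1 gene of the set called higher under both scalings. In regulatory T cells the knockout comparison called 2 of the 10 genes, Orai2 lower and Orai3 higher, where 7.83% of all genes were called, 3.82% lower and 4.01% higher. Besides Orai3 (higher) and Orai2 (lower), Stim2 did not overlap between the regulatory genotypes (lowest WT 64.3 and highest KO 64.2 CPM), while 26.2% of all genes did not (13.2% higher and 13.0% lower). With T cell gene scaling the same comparison called Orai1 and Orai3 higher and none lower, against 32.1% and 0.258% of all genes (32.4% in all).

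**Figure D1:**
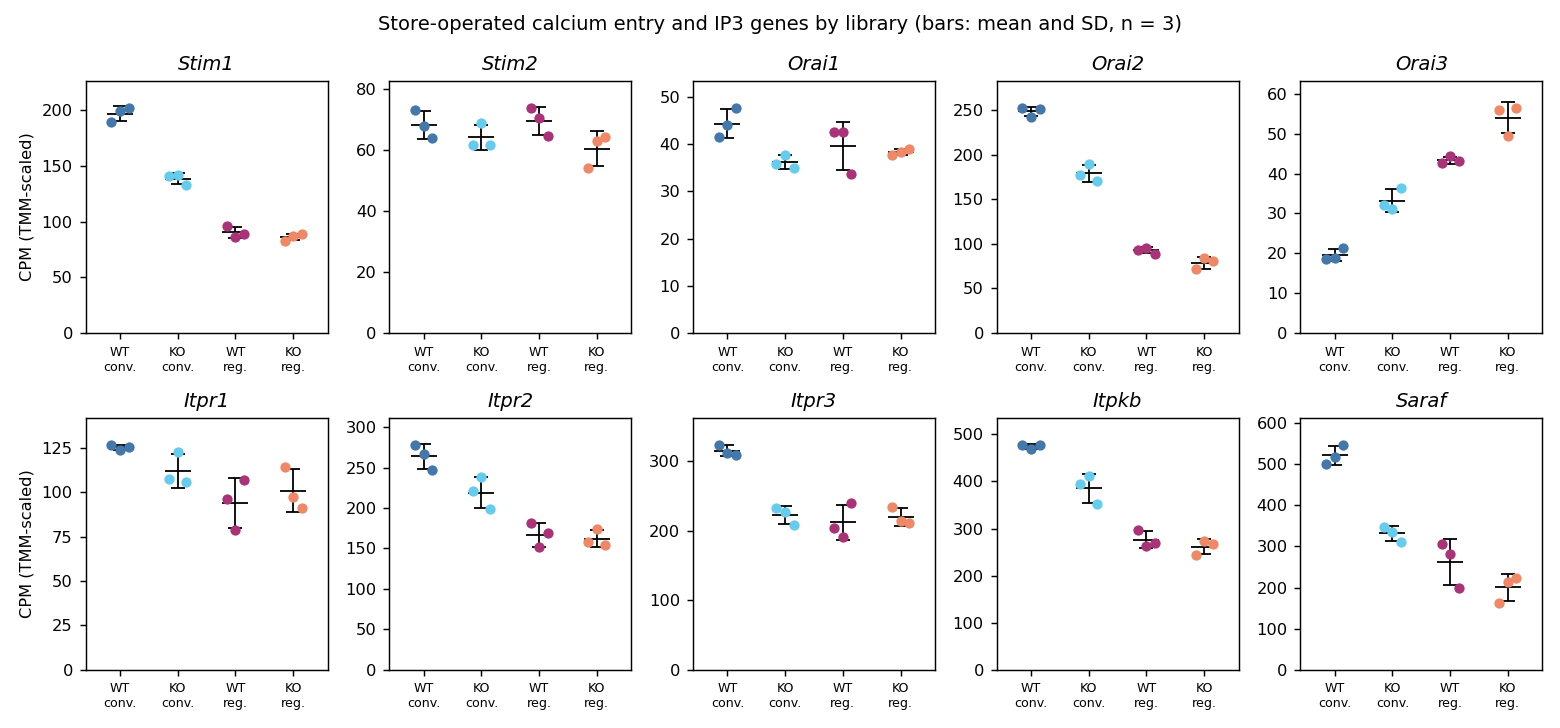
Level of each of the 10 genes in CPM (vertical axis, TMM scaling, starting at 0) in every library, by genotype and T cell type; points are libraries, bars the mean and SD of 3. Orai3 is the only panel whose group means climb at every step, from 18.5 to 21.2 CPM in WT conventional libraries to 49.6 to 56.5 CPM in KO regulatory ones; with T cell gene scaling those of Stim2, Orai1 and Itpr3 do so too.

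Stim1, the sensor that responds to strong store depletion, lies on chromosome 7 at 102267806 to 102437319 (GRCm38, plus strand). Its level was 189.7, 199 and 202 CPM in WT conventional replicates 1 to 3 and 141, 142 and 133 CPM in the KO ones. The WT regulatory libraries held 95.7, 86.2 and 89.3 CPM, and those of the KO 83.0, 86.9 and 88.9 CPM. The conventional groups thus stood apart from each other and from all regulatory libraries, while the regulatory genotypes overlapped. In conventional cells the log2 fold change was -0.51 (SE 0.05, edgeR adjusted p = 2.01e-05), which leaves KO at 70.3% of the WT mean. In regulatory cells it was -0.07 (SE 0.05, 95% interval -0.18 to 0.04, edgeR adjusted p = 0.434). The difference of these effects was 0.44 (SE 0.07, edgeR adjusted p = 0.00199). With T cell gene scaling the conventional value turned to 0.08 (SE 0.17, adjusted p = 0.696) and the regulatory one to 0.46 (SE 0.17, adjusted p = 0.0534), and the difference kept its sign at 0.38 without passing (adjusted p = 0.611). Regulatory against conventional, Stim1 was lower by both scalings in WT, at -1.12 (SE 0.05, edgeR adjusted p = 1.14e-08) and -0.48 (adjusted p = 0.0245). In KO it was -0.68 (SE 0.05, edgeR adjusted p = 6.28e-07) and, with T cell gene scaling, -0.11 (adjusted p = 0.616).

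Stim2, the sensor tuned to small dips in store calcium, is on chromosome 5 at 53998499 to 54121057 (plus strand). WT conventional libraries had 73.1, 67.6 and 64.0 CPM of it, and KO conventional ones 61.7, 68.7 and 61.6 CPM. For regulatory cells the values were 73.7, 70.3 and 64.3 CPM (WT) and 53.9, 63.0 and 64.2 CPM (KO). The 4 groups lay between 53.9 and 73.7 CPM, and no TMM-scaled comparison called it. The knockout log2 fold change was -0.09 (95% interval -0.27 to 0.09) in conventional and -0.20 (-0.38 to -0.02, edgeR adjusted p = 0.152) in regulatory cells. Scaling to T cell genes put Stim2 higher in KO conventional cells, at 0.49 (SE 0.16, edgeR adjusted p = 0.0246).

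The balance of the STIM genes, read as the share of each in their summed level per kilobase of exon, does not depend on how libraries are scaled. Other cells in a library, such as B cells in regulatory ones, still enter it, and their part was not tested. Stim1 made up 58.8 ± 2.41% of the pair in WT conventional libraries, 51.7 ± 1.25% in KO conventional, 39.2 ± 1.49% in WT regulatory and 41.5 ± 1.52% in KO regulatory ones (SD, n = 3). Conventional libraries lay between 50.5% and 61.0%, regulatory ones between 37.8% and 43.2%. The ratio of Stim2 to Stim1 was 0.42 higher on the log2 scale in KO than in WT conventional cells (SE 0.09), with no overlap. It was 1.15 (SE 0.10) higher in regulatory than conventional WT cells, again without overlap, and did not separate the regulatory genotypes (-0.14, SE 0.07). For 3 against 3 libraries the two-sided exact permutation test cannot go below p = 0.1. Over 40 such ratio comparisons from 10 gene pairs, 24 stood at that smallest p, which is 0.167 after Benjamini-Hochberg adjustment. None of the ratio differences can therefore pass 0.05 by this test.

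The ORAI subunits are 3 separate genes whose levels went different ways. To show the regulatory sequence beside them, the stretch just upstream of each annotated transcription start is printed from RefSeq (GRCm38.p6), 5′ to 3′ on the gene's strand, with matches to 4 short motifs in capitals. The windows are chr5:123014824-123015073 (plus strand) for Orai1, chr5:136170714-136170906 (minus strand; the 57 bases nearest the RefSeq start lie within the gene's annotated span and were left out) for Orai2 and chr7:127769565-127769814 (plus strand) for Orai3.
Orai1: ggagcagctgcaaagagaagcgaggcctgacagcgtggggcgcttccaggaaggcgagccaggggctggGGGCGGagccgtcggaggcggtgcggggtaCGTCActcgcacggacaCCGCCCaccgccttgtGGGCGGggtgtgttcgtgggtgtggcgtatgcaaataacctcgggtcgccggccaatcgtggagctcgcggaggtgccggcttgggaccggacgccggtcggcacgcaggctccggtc
Orai2: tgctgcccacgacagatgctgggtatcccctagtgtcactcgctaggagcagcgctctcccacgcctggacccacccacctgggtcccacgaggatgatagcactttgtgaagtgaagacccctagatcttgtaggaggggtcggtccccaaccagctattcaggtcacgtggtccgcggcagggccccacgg
Orai3: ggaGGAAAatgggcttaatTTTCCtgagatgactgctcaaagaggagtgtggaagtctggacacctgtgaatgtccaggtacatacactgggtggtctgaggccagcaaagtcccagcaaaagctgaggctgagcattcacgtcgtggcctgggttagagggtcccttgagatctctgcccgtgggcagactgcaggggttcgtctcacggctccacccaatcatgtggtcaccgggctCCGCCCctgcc
The motifs searched on both strands were the GC box GGGCGG, the cAMP response element core TGACG, the NFAT core GGAAA and the TATA box TATAAA, none of whose matches overlap here. In the 250 bases of Orai1 there were 3 GC boxes and 1 cAMP core, and in those of Orai3 2 NFAT cores and 1 GC box. The 193 bases of Orai2 held none of the 4. Among 32851 promoters in the same table, 250 bases upstream held a GC box in 32.74%, a cAMP core in 17.77%, an NFAT core in 55.57% and a TATA box in 12.37%, and over 193 bases the shares were 23.46%, 12%, 47.48% and 8.864%. A match is a string of letters and was not tested for binding. The GC content was 70.8%, 62.18% and 57.2%, against a median of 52.4% over all promoters for 250 bases and 51.3% for 193.

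Orai1, the main pore subunit of the T cell channel, is on chromosome 5 at 123015074 to 123030456. In conventional cells it stood at 41.4, 44.0 and 47.6 CPM with Coro1a and at 35.7, 37.8 and 34.9 CPM without, and the groups did not overlap. In regulatory cells the WT values of 42.6, 42.6 and 33.7 CPM spanned the KO values of 37.7, 38.3 and 38.9 CPM. The knockout log2 fold change was -0.30 (SE 0.09, edgeR adjusted p = 0.0159) in conventional cells. This call was lost without WT conventional replicate 3 (adjusted p = 0.0674) or KO conventional replicate 3 (adjusted p = 0.0573), and T cell gene scaling turned the value to 0.29 (SE 0.17, adjusted p = 0.157). In regulatory cells it was -0.05 (95% interval -0.24 to 0.14) by TMM and 0.50 with T cell gene scaling (SE 0.17, adjusted p = 0.0434). Orai1 was not called between cell types by TMM, at -0.16 (SE 0.09) in WT and 0.08 (SE 0.09) in KO, but a sex term added after seeing the data gave a call in WT (-0.20, edgeR adjusted p = 0.041). Scaled to T cell genes, the values were 0.46 (adjusted p = 0.0291) and 0.67 (adjusted p = 0.00423).

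Orai2, which can lower the current of the channels it joins, is on chromosome 5 at 136147459 to 136170713 on the minus strand. Its levels were 252, 243 and 251 CPM for WT conventional and 177, 189.5 and 170.2 CPM for KO conventional cells. Regulatory cells held far less, with 93.1, 95.5 and 89.0 CPM for WT and 71.4, 84.6 and 80.6 CPM for KO. The 4 groups did not overlap at any step of that order. With the knockout Orai2 fell by 0.47 on the log2 scale in conventional cells (SE 0.06, edgeR adjusted p = 0.00013) and by 0.23 in regulatory cells (SE 0.06, edgeR adjusted p = 0.048). Both values changed sign under T cell gene scaling, to 0.11 (adjusted p = 0.543) and 0.28 (adjusted p = 0.133). The regulatory call sat at the threshold and was lost in 9 of the 12 fits that left out 1 library, with adjusted p from 0.0199 to 0.152. Between cell types Orai2 changed more than any other of the 10 genes by TMM, to 37.2% of the WT conventional mean in WT regulatory libraries, a log2 fold change of -1.43 (SE 0.06, edgeR adjusted p = 1.06e-08). In KO it was -1.18 (SE 0.06, edgeR adjusted p = 6.00e-08). It stayed lower with T cell gene scaling, at -0.79 (adjusted p = 0.000594) and -0.62 (adjusted p = 0.00395).

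Orai3, the subunit found only in mammals and able to form channels gated by arachidonic acid products, is on chromosome 7 at 127769815 to 127775150. It was the least abundant of the 10 genes in WT conventional cells by read number, at 18.5, 18.8 and 21.2 CPM. Every other group lay higher without overlap, KO conventional at 32.2, 31.0 and 36.5, WT regulatory at 42.7, 44.3 and 43.1 and KO regulatory at 56.0, 49.6 and 56.5 CPM. With the knockout it rose by 0.77 on the log2 scale in conventional cells (SE 0.08, edgeR adjusted p = 2.84e-05), or 70.1%, and by 0.32 in regulatory cells (SE 0.08, edgeR adjusted p = 0.0346), or 24.5%. With T cell gene scaling the values were 1.37 (SE 0.22, adjusted p = 0.000254) and 0.85 (SE 0.21, adjusted p = 0.0252), where all genes had a median of 0.53 in either comparison. Between cell types Orai3 was higher in regulatory libraries by 1.15 in WT (SE 0.08, edgeR adjusted p = 2.50e-07) and 0.70 in KO (SE 0.08, edgeR adjusted p = 1.27e-05), and by 1.80 and 1.28 with T cell gene scaling. The conventional knockout call stood whichever of the 12 libraries was left out, with adjusted p from 4.02e-05 to 0.000311. The regulatory one was lost in 6 of those 12 fits, among them each of the 3 without a WT regulatory library, with log2 fold changes from 0.28 to 0.38 and adjusted p from 0.0251 to 0.103. Without the 2 libraries that held both Xist and Y-linked reads it was 0.29 (adjusted p = 0.111). The macrophage, neutrophil and NK cell markers given above were higher in KO conventional libraries as Orai3 was, and B cell markers in regulatory ones. Regulatory T cell markers were higher in both, at 142 to 204 CPM in WT and 295 to 488 CPM in KO conventional libraries. Dendritic cell, B cell, and mast cell and basophil markers were also higher in KO conventional libraries. Between the regulatory genotypes neutrophil markers went from 72.2 (55.9 to 102) in WT to 173 CPM (109 to 237) in KO and NK cell markers from 59.2 (45.1 to 73.8) to 84.7 (79.7 to 90.4), without overlap, while macrophage and monocyte markers overlapped, at 803 (715 to 935) and 1066 CPM (777 to 1602). Mast cell and basophil markers (4.66 to 6.15 CPM in WT, 13.0 to 21.5 in KO) and platelet markers (10.6 to 22.3 and 27.4 to 52.4) did not overlap either. The part of all these cells in the level of Orai3 was not tested.

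Orai3 lies 1.06 Mb from the deleted Coro1a (chromosome 7, 126699773 to 126707787). Of 140 tested genes within 5 Mb of Coro1a, 26 were called higher and 51 lower in KO conventional cells, 55% in all and 18.6% higher, where all tested genes had 48.7% and 23.3%. In regulatory cells 4 were called higher and 13 lower, 12.1% in all and 2.86% higher, against 7.83% and 4.01%. Orai3 ranked 22nd and 20th from the highest log2 fold change among these neighbours. Stim1 is on the same chromosome, 24.3 Mb away, and the other 8 genes are on other chromosomes.

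Per kilobase of exon, Orai2 was the main ORAI transcript of WT conventional libraries and Orai3 that of regulatory libraries. In regulatory libraries B cell markers summed to 3397 (WT) and 3465 CPM (KO), above the T cell markers at 2079 and 1467 CPM. The part of B cell RNA in the shares below was not tested. In WT conventional libraries Orai2 held 59.0 ± 1.75% of the family, Orai1 27.9 ± 1.24% and Orai3 13.1 ± 0.573% (SD, n = 3). In KO conventional libraries Orai2 held 48.5 ± 1.88%, Orai1 25.9 ± 0.63% and Orai3 25.6 ± 2.51%, so that Orai1 and Orai3 were level within their spread. In WT regulatory libraries Orai3 led with 38.5 ± 1.98%, followed by Orai1 with 32.6 ± 2.60% and Orai2 with 28.9 ± 0.62%. In KO regulatory libraries Orai3 reached 45.9 ± 2.60%, with Orai1 at 30.4 ± 0.572% and Orai2 at 23.7 ± 2.14%. The ratio of Orai3 to Orai2 was 0.209, 0.220 and 0.240 for WT and 0.516, 0.464 and 0.608 for KO conventional replicates. Regulatory replicates had 1.30, 1.32 and 1.38 (WT) and 2.22, 1.66 and 1.99 (KO). On the log2 scale the knockout differences were 1.24 (SE 0.13) and 0.55 (SE 0.12), and those between cell types 2.58 (SE 0.06) in WT and 1.89 (SE 0.17) in KO. In all 4 comparisons the libraries did not overlap and stood at the smallest exact permutation p of 0.1.

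**Figure D2:**
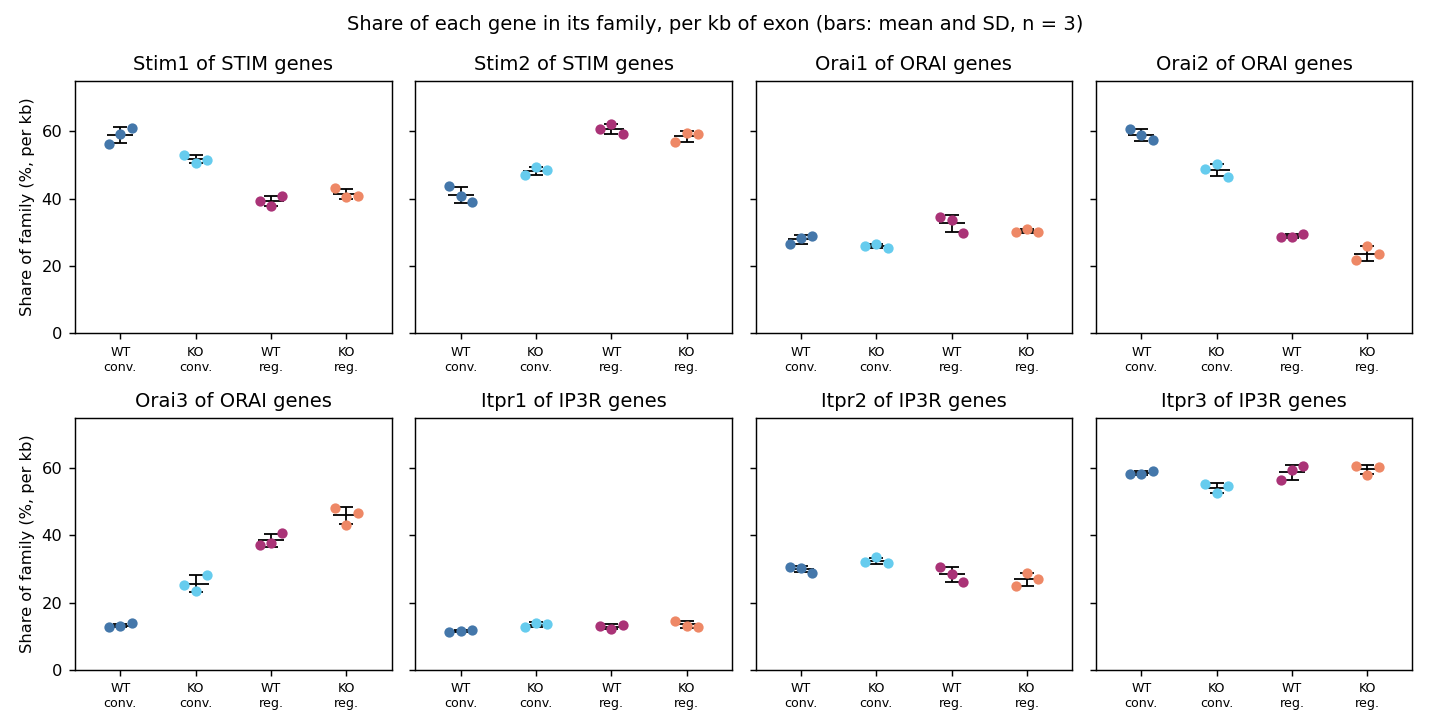
Share of each gene in the summed level per kilobase of exon of its family (vertical axis, percent), for the STIM, ORAI and IP3 receptor (IP3R) families; points are libraries, bars the mean and SD of 3. Orai2 goes from 59.0% in WT conventional to 23.7% in KO regulatory libraries while Orai3 goes from 13.1% to 45.9%, and Orai1 stays between 25.2% and 34.5% in every library. These shares are the same under any scaling of libraries, but other cells in a library enter them, and their part was not tested.

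Among the IP3 receptors, which release store calcium, Itpr3 (chromosome 17, 27057304 to 27122223) was the most abundant per kilobase in every group. Conventional libraries held 323, 312 and 309 CPM with WT genotype, all above the 232, 227 and 209 CPM of the KO. The regulatory genotypes overlapped, WT at 204, 191 and 240.3 CPM and KO at 235, 214 and 211 CPM. Itpr3 fell by 0.50 on the log2 scale with the knockout in conventional cells (SE 0.08, edgeR adjusted p = 0.000428) and was at 0.05 in regulatory cells (SE 0.08, 95% interval -0.12 to 0.23). The difference between those effects was 0.55 (SE 0.11, edgeR adjusted p = 0.00602), the widest of the 10 genes by TMM. T cell gene scaling put the conventional value at 0.09 (SE 0.23, adjusted p = 0.751) and the regulatory value at 0.58 (SE 0.23, adjusted p = 0.0577), and their difference at 0.49 (adjusted p = 0.614). Regulatory against conventional, Itpr3 was -0.57 in WT (SE 0.08, edgeR adjusted p = 5.16e-05) but -0.02 in KO (SE 0.08, 95% interval -0.19 to 0.15). The values with T cell gene scaling were 0.09 (adjusted p = 0.739) and 0.58 (adjusted p = 0.0385).

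Itpr2 (chromosome 6, 146108299 to 146502223, minus strand) had 278, 267 and 247 CPM in the WT conventional libraries, against 221, 238 and 199 CPM in their KO counterparts. The regulatory libraries had 181, 151 and 169 CPM (WT) and 158, 175 and 154 CPM (KO). The conventional groups were separate by a narrow gap, from 238 to 247 CPM, and the regulatory groups overlapped. The knockout log2 fold change in conventional cells was -0.27 (SE 0.08, edgeR adjusted p = 0.019). It lost its call without WT conventional replicate 1, WT conventional replicate 2 or KO conventional replicate 3 (adjusted p = 0.0683, 0.0529 and 0.0825) and turned to 0.31 (adjusted p = 0.167) with T cell gene scaling. In regulatory cells it was -0.04 (SE 0.08). Between cell types Itpr2 was lower in regulatory libraries by TMM, at -0.66 in WT (SE 0.08, edgeR adjusted p = 2.39e-05) and -0.43 in KO (SE 0.08, edgeR adjusted p = 0.000658), which T cell gene scaling moved to -0.02 and 0.15 with no call.

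Itpr1 (chromosome 6, 108213096 to 108551109) was at 127, 124 and 126 CPM in WT conventional cells and, for the KO, at 108, 123 and 106 CPM. Regulatory cells of WT had 96.3, 78.8 and 107 CPM, and those of the KO 115, 97.1 and 91.1 CPM. The knockout values of -0.16 (SE 0.11, edgeR adjusted p = 0.235) and 0.10 (SE 0.11, edgeR adjusted p = 0.587) did not pass, although the conventional groups did not overlap (lowest WT 123.9 and highest KO 122.8 CPM). Itpr1 was lower in regulatory than conventional WT cells by TMM, at -0.42 (SE 0.11, edgeR adjusted p = 0.00472), and at 0.25 (adjusted p = 0.393) with T cell gene scaling. As shares of the receptor family per kilobase, Itpr3 held 58.6 ± 0.587% in WT conventional, 54.1 ± 1.47% in KO conventional, 58.8 ± 2.21% in WT regulatory and 59.7 ± 1.38% in KO regulatory libraries (SD, n = 3). Itpr2 held 26.9% to 32.4% and Itpr1 11.5% to 13.5% as group means. The lower Itpr3 share of KO conventional libraries (52.5% to 55.3%, against 58.2% to 59.3% in WT conventional) went with a log2 ratio of Itpr3 to Itpr2 that was 0.23 lower than in WT (SE 0.06, no overlap, exact permutation p = 0.1).

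Itpkb (chromosome 1, 180330485 to 180424802), whose product is needed for T cell development in mice, ranked next to Saraf per kilobase in 3 of the 4 groups and level with Orai3 in KO regulatory cells. WT conventional libraries had 477, 468 and 478 CPM, apart from the 395, 411 and 352 CPM of the KO. With 298, 263 and 269 CPM for WT and 244, 274 and 268 CPM for KO, the regulatory groups overlapped. Its knockout log2 fold change was -0.30 in conventional (SE 0.07, edgeR adjusted p = 0.00478) and -0.08 in regulatory cells (SE 0.07, edgeR adjusted p = 0.516), and T cell gene scaling gave 0.29 (adjusted p = 0.15) and 0.44 (adjusted p = 0.0501). By TMM it was lower in regulatory cells, at -0.78 in WT (SE 0.07, edgeR adjusted p = 1.74e-06) and -0.56 in KO (SE 0.07, edgeR adjusted p = 3.06e-05), neither of which was called with T cell gene scaling (-0.14 and 0.01). The ratio of Itpkb to Itpr2 moved by 0.13 or less on the log2 scale in each of the 4 comparisons, and the libraries overlapped in all of them.

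Saraf (chromosome 8, 34154575 to 34170821) had the highest level per kilobase of the 10 genes in all 4 groups. Its levels were 500.4, 517 and 547 CPM for WT and 348, 336 and 311 CPM for KO conventional cells. They were 305, 283 and 198 CPM for WT and 163, 214 and 224 CPM for KO regulatory cells. All conventional KO libraries lay below the WT ones, and the regulatory groups overlapped through WT regulatory replicate 3, the lowest of its group. KO conventional cells were at 63.6% of the WT mean, a log2 fold change of -0.65 (SE 0.15, edgeR adjusted p = 0.00375). In regulatory cells it was -0.39 (SE 0.15, edgeR adjusted p = 0.129). Without WT regulatory replicate 3 the regulatory value was -0.55 (adjusted p = 0.0163), without both libraries of mixed Xist and Y-linked reads it was -0.42 (adjusted p = 0.00993), and T cell gene scaling put it at 0.14 (adjusted p = 0.354). The same scaling left the conventional value near 0, at -0.06 (SE 0.13, adjusted p = 0.682). Saraf was lower in regulatory than conventional cells, by TMM at -0.99 in WT (SE 0.15, edgeR adjusted p = 9.18e-05) and -0.73 in KO (SE 0.15, edgeR adjusted p = 0.00101). With T cell gene scaling WT kept its call at -0.39 (adjusted p = 0.0176) and KO did not at -0.18 (adjusted p = 0.236). The ratio of Saraf to Stim1, its binding partner, was 9.34, 9.18 and 9.60 with WT and 8.74, 8.39 and 8.30 with KO genotype in conventional cells, a log2 difference of -0.15 (SE 0.03) without overlap (exact permutation p = 0.1).

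**Figure D3:**
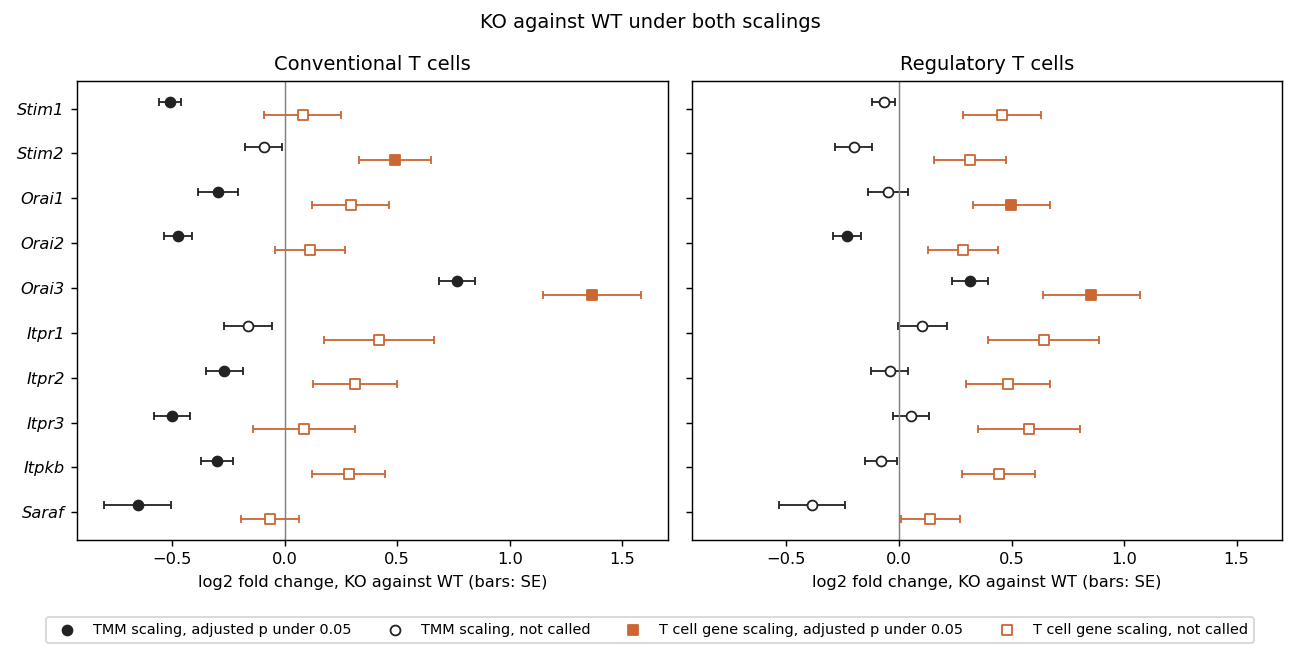
Log2 fold change of KO against WT (horizontal axis, bars the SE) for each gene in conventional and regulatory T cells, under TMM scaling (circles) and T cell gene scaling (squares), filled where the adjusted p is under 0.05. Orai3 is filled on the right of 0 under both scalings in both panels, whereas the 7 genes filled on the left of 0 by TMM in conventional cells have no filled square, and 6 of them turn positive.

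Between the T cell types, the set was mostly lower in regulatory libraries by TMM, whereas with T cell gene scaling only Stim1, Orai2 and Saraf in WT and Orai2 in KO were called lower. The sign turned to higher under that scaling for Orai1, Itpr1 and Itpr3 in WT and for Stim2, the 3 IP3 receptors and Itpkb in KO. In WT 7 of the 10 genes were called lower and 1, Orai3, higher, where 33.3% and 39.1% of all genes were (72.4% in all). In KO 5 were called lower and Orai3 higher, where 31.7% and 36.1% of all genes were (67.8% in all). The same numbers of genes lay wholly lower or higher by library, against 75.3% of all genes without overlap in WT (35.4% lower, 39.9% higher) and 72.7% in KO (34.1% lower, 38.6% higher). The median over the 10 genes was -0.62 in WT and -0.29 in KO, and over all genes 0.07 and 0.03. Under T cell gene scaling 3 were called higher (Stim2, Orai1, Orai3) and 3 lower (Stim1, Orai2, Saraf) in WT, with 57.3% and 6.07% of all genes called (63.4% together). In KO 4 were called higher (Stim2, Orai1, Orai3, Itpr3) and 1 lower (Orai2), with 52.1% and 6.75% of all genes called (58.8% together). Orai2 lower and Orai3 higher were thus called by both scalings in both genotypes. T cell gene scaling takes its 6 genes together to be expressed alike per T cell in both cell types, which was not tested. Lat, 1 of the 6, stayed lower in WT regulatory libraries under that scaling, at -0.60 (edgeR adjusted p = 0.000776). Both of these cell type comparisons set libraries with over 2989 CPM of summed B cell markers against libraries with under 41 CPM, and the part of B cell RNA in them was not tested. Sex-linked reads were uneven between the cell types too. Replicates 1 and 2 of both conventional groups had Xist reads, while most regulatory libraries had Y-linked reads with little Xist. A sex term, added after seeing the data, changed 1 call of the 10 genes, that of Orai1 in WT. Read classes moved with cell type as well, without overlap. Mitochondrial genes took 1.44% to 2.33% of counts in conventional and 5.16% to 8.15% in regulatory libraries, reads in no annotated feature 13.3% to 15.7% against 4.98% to 6.87%, and multimapping reads 9.25% to 11.1% against 15.8% to 19.5%. Their part in these comparisons was not tested.

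The effect of the knockout differed between the cell types for 3 of the 10 genes: Stim1 and Itpr3, which fell in conventional cells and were not called in regulatory ones, and Orai3, whose rise was smaller in regulatory cells by 0.45 on the log2 scale (SE 0.11, edgeR adjusted p = 0.0161). Over all genes 21.3% were called for this difference, 8.86% in the upward direction of Stim1 and Itpr3 and 12.4% in that of Orai3. Orai2 missed the threshold at 0.24 (SE 0.09, edgeR adjusted p = 0.0725). T cell gene scaling called none of the 10 (background 5.97%, 0.188% upward and 5.78% downward), with differences of 0.38, 0.49 and -0.51 for Stim1, Itpr3 and Orai3, and the smallest unadjusted edgeR p among the 10 was 0.111. The effects share no libraries, but the 4 groups share 1 estimate of spread per gene.

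Ordered by level per kilobase, WT conventional cells had Saraf at 178 ± 8.14, Itpkb at 45.4 ± 0.531, Orai2 at 40.9 ± 0.854 and Itpr3 at 34.9 ± 0.866 CPM per kb (SD, n = 3), each apart from the next. Orai1 at 19.3 ± 1.36, Stim1 at 18.99 ± 0.624 and Itpr2 at 17.8 ± 1.07 CPM per kb followed and were level within their spread. Stim2 at 13.3 ± 0.892, Orai3 at 9.12 ± 0.695 and Itpr1 at 6.85 ± 0.0811 CPM per kb closed the list. In KO regulatory cells the order was Saraf at 68.3 ± 11.2, then Orai3 at 25.2 ± 1.80, Itpkb at 25.0 ± 1.52 and Itpr3 at 24.4 ± 1.44 CPM per kb, these last 3 within their spread. Orai1 at 16.68 ± 0.263 and Orai2 at 13.0 ± 1.11 CPM per kb came next, with Stim2 at 11.8 ± 1.10 and Itpr2 at 10.96 ± 0.73 close to Orai2. Stim1 at 8.32 ± 0.292 and Itpr1 at 5.51 ± 0.666 CPM per kb were lowest there. Among 15863 genes with a known exon length, Orai3 moved from the 65.3rd percentile of level per kilobase in WT conventional to the 86.6th in KO regulatory cells, and Stim1 from the 81.6th to the 63.3rd.

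Across the 12 libraries Stim1, Orai2, Itpr2, Itpkb and Saraf varied together, with Pearson correlations of log2 CPM between 0.88 and 0.99 for each pair, and Orai3 ran against each of them (-0.97 to -0.94). Stim2 and Orai1 were less tied to the rest, at 0.28 and 0.44 with Stim1. The points are 12 libraries in 4 groups that share their scaling, so these are descriptions of the group pattern. Over 9241 other genes of at least 10 CPM, those most like Stim1 were Sh3bp1 (r = 0.996), Jak1 (r = 0.996), a kinase of cytokine receptors, and Tgfbr2 (r = 0.994), a receptor for TGF-beta. Most like Itpkb were Mlec (r = 0.995), Elmo1 (r = 0.995) and Ddx23 (r = 0.994). Orai1 had looser matches in Tmem165 (r = 0.957), Tpt1 (r = 0.939) and Msh6 (r = 0.931).

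By TMM the wider calcium pathway did not lean one way with the knockout. In 7 lists of other genes around it, 98 of 101 listed genes were tested. With the knockout 28 rose and 28 fell in conventional cells, with a median log2 fold change of -0.01, and 10 rose and 6 fell in regulatory cells, with a median of 0.00. These counts, and those of the single lists, stand against 23.3% of all genes called higher and 25.4% lower in conventional and 4.01% and 3.82% in regulatory cells. Scaled to T cell genes, 58 and 38 of them were called higher and none lower, with medians of 0.58 and 0.53, beside 0.53 over all genes. Of all genes this scaling called 44.0% higher and 0.377% lower in conventional and 32.1% and 0.258% in regulatory cells. Upstream of the receptors, 4 of 9 genes of IP3 generation rose and 4 fell in KO conventional cells. Among them rose Plcb1, from 0.163 ± 0.0288 to 2.88 ± 1.96 CPM, and Plcg2, the phospholipase C-gamma of B and myeloid cells, from 4.37 ± 1.09 to 52.1 ± 19.9 CPM (log2 fold change 3.57, SE 0.31, edgeR adjusted p = 9.23e-06). Plcg2 stood at 186 ± 51.6 CPM in WT regulatory libraries, where B cell markers were high, and Plcg1, the T cell form, fell from 531 ± 24.1 in WT conventional to 208 ± 12.6 CPM in WT regulatory cells (SD, n = 3). Between cell types the 7 lists had 40 genes higher and 28 lower in WT and 38 higher and 36 lower in KO, with medians of 0.09 and -0.11. Of all genes 39.1% were called higher and 33.3% lower in WT, and 36.1% and 31.7% in KO. With T cell gene scaling 63 listed genes were called higher and 8 lower in WT, and 48 and 8 in KO. All genes then had 57.3% and 6.07% in WT, and 52.1% and 6.75% in KO.

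Genes that degrade or convert inositol phosphates had 2 higher and 4 lower of 14 in KO conventional and 1 higher and 2 lower in KO regulatory cells. Inpp4a and Inpp4b, phosphatases of inositol lipids, fell in both, Inpp4a by 0.35 (SE 0.05, edgeR adjusted p = 0.000287) and 0.37 (SE 0.05, edgeR adjusted p = 0.00387), and both genes were above 0 and not called with T cell gene scaling. Ipmk rose in KO conventional cells (0.44, SE 0.06, edgeR adjusted p = 0.00012) and Inpp5d, which encodes SHIP1, in KO regulatory cells (0.37, SE 0.07, edgeR adjusted p = 0.0122), each also by T cell gene scaling. Inpp5d was called higher in KO conventional cells as well (0.26, SE 0.07, edgeR adjusted p = 0.00949, and 0.86 with T cell gene scaling). Among 14 regulators of STIM and ORAI, 3 rose and 5 fell in KO conventional cells. In regulatory cells edgeR called none by TMM, the smallest adjusted p being 0.0586 (Esyt2). With T cell gene scaling 5 of 14 were called higher, where 32.1% of all genes were. Esyt1, which tethers the reticulum to the plasma membrane, fell from 654 ± 10.2 to 437 ± 3.79 CPM (log2 fold change -0.58, SE 0.06, edgeR adjusted p = 2.32e-05), Ubqln1 fell by 0.32 and Asph rose by 2.11. Esyt1 and Ubqln1 were at 0.01 and 0.27 with T cell gene scaling and not called.

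Of 20 tested IP3 receptor regulators, 5 rose and 4 fell in KO conventional cells, and 4 rose and 2 fell in KO regulatory cells. Itpripl2 rose from 7.66 ± 0.984 to 33.6 ± 6.02 CPM in conventional cells (log2 fold change 2.13, SE 0.13, edgeR adjusted p = 1.81e-06), and Ahcyl1, which competes with IP3 at its receptor, fell by 0.30 while Cherp fell by 0.33, both not called with T cell gene scaling. In KO regulatory cells Ahcyl2 rose by 0.42 (SE 0.07, edgeR adjusted p = 0.00561), Bok rose from 3.04 ± 1.30 to 9.93 ± 4.86 CPM, and the survival gene Bcl2 fell by 0.37 (SE 0.07, edgeR adjusted p = 0.0149; 0.18 and not called with T cell gene scaling). Of 14 pump and store genes, 2 rose and 5 fell in KO conventional cells. In KO regulatory cells 2 rose and none fell, namely the store calcium buffer Calr, from 534 ± 18.0 to 697 ± 31.1 CPM (log2 fold change 0.38, SE 0.05, edgeR adjusted p = 0.00361), and Hsp90b1 by 0.24 (SE 0.06, edgeR adjusted p = 0.0409). The pump genes Atp2c1 and Atp2b4 went opposite ways in KO conventional cells by TMM, Atp2c1 lower at -0.32 (0.28 and not called with T cell gene scaling) and Atp2b4 higher, from 17.7 ± 8.24 to 53.5 ± 8.28 CPM.

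Of 12 mitochondrial calcium genes, 4 rose and 3 fell in KO conventional cells, among them Mcub (1.10, SE 0.16, edgeR adjusted p = 0.000269) and Slc8b1 (1.47, SE 0.22, edgeR adjusted p = 0.000293) higher and Letm1 lower (-0.26, and 0.33 without a call under T cell gene scaling). Other calcium-permeable channels were the list with the highest median in KO conventional cells, 0.55, with 8 of 15 higher and 3 lower. Trpm2, a channel of myeloid cells, rose from 8.85 ± 3.18 to 48.8 ± 12.1 CPM and Ryr1 from 0.473 ± 0.232 to 2.09 ± 0.72 CPM, while the lysosomal channel Tpcn1 fell by 0.65 (SE 0.06, edgeR adjusted p = 9.94e-06; -0.07 and not called with T cell gene scaling). In KO regulatory cells Cacnb3, a subunit of voltage-gated channels, rose from 11.6 ± 2.64 to 38.7 ± 10.2 CPM (log2 fold change 1.74, SE 0.23, edgeR adjusted p = 0.00274), and Trpm7 and Tpcn1 fell by 0.26 and 0.28 on the log2 scale (0.27 and 0.25, not called, with T cell gene scaling). Several of the risen genes are also expressed by myeloid or B cells, whose markers moved in the same libraries, and their part was not tested.

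Between the T cell types, 8 of 12 mitochondrial genes were higher in regulatory libraries in WT and 7 in KO, and 2 and 1 were lower, where 39.1% of all genes were called higher and 33.3% lower in WT and 36.1% and 31.7% in KO. In WT Mcub, a subunit that restrains the mitochondrial calcium uniporter, went from 3.61 ± 0.357 to 12.54 ± 0.817 CPM. Of 14 pump and store genes, 7 were called higher and 2 lower in WT and 8 and 2 in KO, to be read against the same shares. Calr was higher by 0.35 and 0.75. Among the STIM and ORAI regulators, Cracr2a, whose product binds ORAI1 and STIM1, was lower in regulatory cells by both scalings, at 9.41 ± 0.71 against 3.01 ± 0.42 CPM in WT (log2 fold change -1.64, SE 0.15, edgeR adjusted p = 1.68e-06; -1.01 with T cell gene scaling). Esyt2, another membrane tether, was lower from 461 ± 4.27 to 194 ± 17.5 CPM in WT and from 322 ± 29.5 to 158 ± 14.8 CPM in KO, again by both scalings. The IP3 receptor regulator list had Lrmp higher in WT, at 217 ± 12.6 against 89.7 ± 11.4 CPM. B cells, whose markers were high in every regulatory library, were not tested as a source of these differences.

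**Figure D4:**
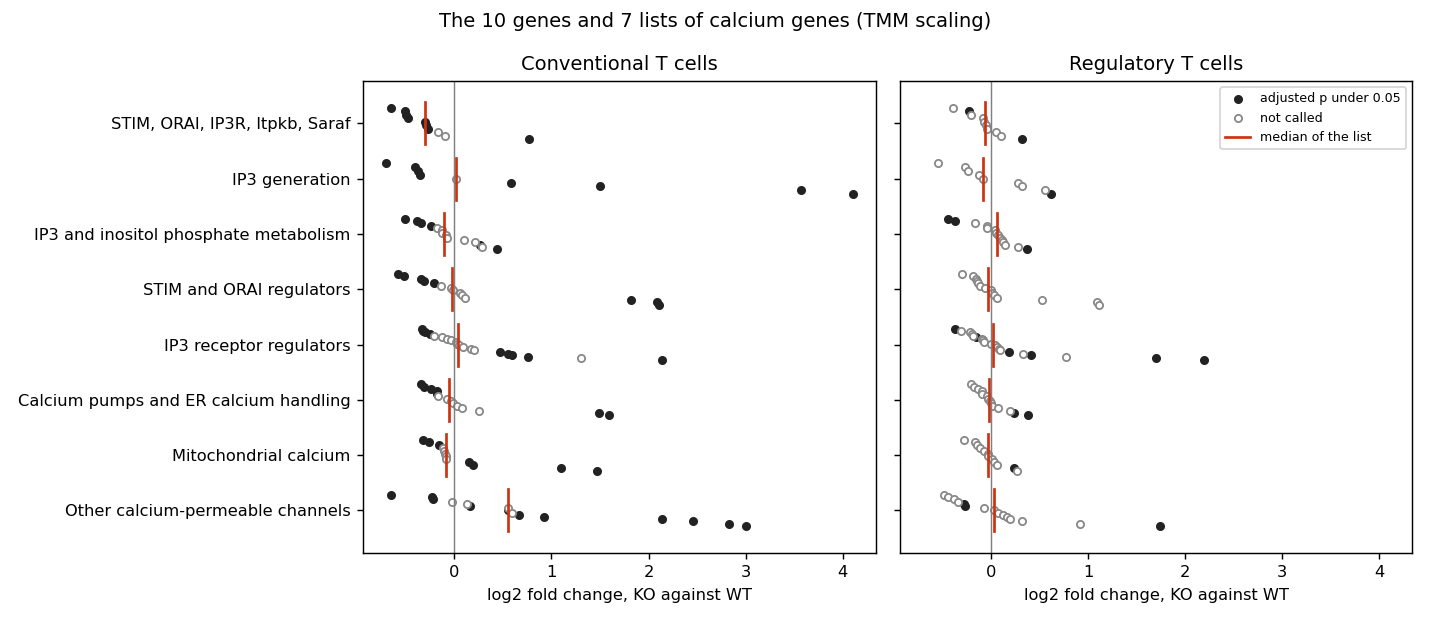
Log2 fold change of KO against WT (horizontal axis, TMM scaling) for the 10 genes (top row) and for each gene of 7 lists of other calcium genes in conventional and regulatory T cells; filled points have an adjusted p under 0.05 and the vertical bar is the list's median. The 10 genes have a median of -0.30 in conventional cells and the list of other calcium-permeable channels one of 0.55, while in regulatory cells every list's median lies between -0.08 and 0.06; T cell gene scaling moves the median of all genes in both panels to 0.53.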

How the data were processed

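The deposited table, made by the authors, holds raw read counts per gene for 45706 genes and 12 libraries of poly(A) RNA from a stranded kit. Reads were aligned to GRCm38 with STAR, per the submitters' processing notes, and counted on the reverse strand, per the name of the deposited table; the annotation release is not given in the sources used here. Its 4 tally entries (26.2% to 30.5% of reads, given to no gene) were left out. Symbols and coordinates came from GENCODE (GRCm38), which named 45143 IDs, and promoters from RefSeq, which had 8 of the 10 genes. The libraries were grouped by the labels' genotype and cell type.

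All 12 libraries were fitted with edgeR 4.0.16 (R 4.3.3, quasi-likelihood F test, 1 term per group, TMM) after filterByExpr (minimum count 10, minimum total 15), which left 15922 genes. Tests were two-sided with Benjamini-Hochberg adjustment over all of them, called at 0.05, and every adjusted p without another name is from this edgeR test. The SE was derived from the fold change and F. A count of 551 or more per library lay behind each of the 10 genes. The method was tested on simulated data in which few genes changed, in KO conventional libraries only. That setting held no added RNA of other cells and does not test the choice of scaling. Shares and ratios used CPM per kilobase of merged exons, with exact permutation tests. Genes named besides the 10 are Coro1a, Foxp3, up to 3 called genes per list and comparison by smallest p with a mean of at least 1 CPM, and the 3 most alike for Stim1, Orai1 and Itpkb of at least 10 CPM; the pathway text gives a selection of those, and some are not reported here. The 10 genes, 7 pathway lists and 9 marker lists were chosen with earlier results of these data known. Alternatives were RLE and upper-quartile factors, T cell gene scaling, DESeq2 1.42.0, limma-voom (limma 3.58.1), no filter, a mean of at least 5 CPM, only the groups compared, a replicate block, a 1.5-fold minimum and leaving out each library; a sex term and leaving out the 2 libraries with Xist and Y-linked reads were chosen after seeing the data.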

Additional observations from a re-analysis of the deposited data

Results flagged for a closer look

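For 3 of the 10 genes the knockout effect differed between regulatory and conventional T cells by a test of the difference itself (edgeR, 12 libraries, adjusted over 15922 genes, of which 21.3% were called). The effect in regulatory minus that in conventional cells was 0.44 on the log2 scale for Stim1 (95% interval 0.28 to 0.60, adjusted p = 0.00199), with KO at 70.3% of the WT mean in conventional cells and overlapping libraries in regulatory cells. For Itpr3 it was 0.55 (0.31 to 0.80, adjusted p = 0.00602), where all 3 KO conventional libraries lay below all 3 WT ones and the regulatory libraries overlapped. For Orai3 it was -0.45 (-0.70 to -0.20, adjusted p = 0.0161), the gene being higher in all 3 KO than in all 3 WT libraries of either cell type. Macrophage, neutrophil and NK cell markers also rose more with the knockout in conventional than in regulatory libraries, and their part was not tested. With T cell gene scaling the differences were 0.38, 0.49 and -0.51, with edgeR adjusted p of 0.611, 0.614 and 0.53.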

How the results depend on the processing

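Of the 10 genes, 8 were called for the knockout in conventional cells and 2 in regulatory cells, 8 between cell types in WT, 6 in KO, and 3 for how far the effects differ. T cell gene scaling moved these to 2 in conventional cells, 6 for regulatory against conventional in WT, 5 for that in KO, and 0 for the difference, and kept 2 in regulatory cells with Orai1 in place of Orai2. A 1.5-fold minimum left 2 in conventional cells, 0 in regulatory cells and 0 for the difference. Between cell types in WT it kept the calls of Stim1, Orai2, Orai3, Itpr2, Itpkb and Saraf. In KO it kept those of Stim1, Orai2, Orai3 and Saraf. Of all 15922 genes this minimum left 3602 in conventional cells, 562 in regulatory cells and 2018 for the difference. Between cell types 7569 were left in WT and 6726 in KO. In regulatory cells the count was 1 with upper-quartile factors, limma-voom, no filter, or without the 2 libraries with Xist and Y-linked reads, and 0 when only the groups compared were fitted, which leaves 6 libraries to estimate the spread. Over all genes that last fit called 313 in place of 1246, and DESeq2 called 2010. Upper-quartile factors called 1205 genes, limma-voom 1254 and no filter 1066 of 26469. Without the 2 libraries with Xist and Y-linked reads 1193 were called. Leaving out 1 library gave 6 to 8 calls in conventional cells, 0 to 2 in regulatory cells, 8 between cell types in WT, 6 in KO, and 3 to 4 for the difference. Over all genes, 16205 to 16338 tested, those fits called 6073 to 8100 in conventional and 439 to 1974 in regulatory cells. Between cell types they called 10878 to 11727 in WT and 10054 to 11110 in KO, and for the difference 2314 to 3793. Whether the replicate numbers pair the libraries could not be settled with 3 libraries per group. Of 18 same-numbered pairs 5 correlated above 0.1 (range -0.74 to 0.38), and 4 of 12 libraries correlated best with their own number. WT and KO conventional pairs stood at 0.03, 0.07 and 0.38, and KO conventional and KO regulatory pairs at 0.23, 0.30 and 0.06. Those of WT conventional and WT regulatory libraries were at -0.21, -0.22 and -0.23, and the remaining group pairs had both signs. With a replicate block 1 of the 10 genes was called in regulatory cells, where 856 of all 15922 genes were. Orai2 went to an edgeR adjusted p of 0.0653 there, and no other count of the 10 changed.

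Scaling to T cell genes turned the sign of these log2 fold changes. In the conventional knockout comparison they became 0.0807 for Stim1, 0.49 for Stim2, 0.29 for Orai1, 0.11 for Orai2, 0.42 for Itpr1, 0.31 for Itpr2, 0.0865 for Itpr3 and 0.29 for Itpkb. In the regulatory one they became 0.46 for Stim1, 0.32 for Stim2, 0.50 for Orai1, 0.28 for Orai2, 0.48 for Itpr2, 0.44 for Itpkb and 0.14 for Saraf. Regulatory against conventional, they became 0.46, 0.25 and 0.091 for Orai1, Itpr1 and Itpr3 in WT, and 0.48, 0.47, 0.15, 0.58 and 0.0144 for Stim2, Itpr1, Itpr2, Itpr3 and Itpkb in KO. By construction that scaling adds the fall of the 6 T cell genes to every gene. Stim2 turned from -0.0921 to 0.0244 in the conventional knockout comparison with a mean of at least 5 CPM. In that fit Orai1 also moved upward, from -0.296 to -0.180, and Itpr2 from -0.268 to -0.153. TMM factors were computed anew from the genes each filter kept, which can shift all genes together. Between cell types Stim2 turned to -0.00286 in WT with no filter, and Itpr3 to 0.0321 in KO with a sex term. The part of the factors in these changes was not tested. Leaving out 1 library gave both signs for values near 0, from -0.156 to 0.00838 for Orai1, -0.0114 to 0.206 for Itpr1, -0.108 to 0.0176 for Itpr2 and -0.0177 to 0.152 for Itpr3 in the regulatory knockout comparison, -0.0228 to 0.0762 for Stim2 between cell types in WT and -0.0717 to 0.0119 for Itpr3 in KO. A mean of at least 5 CPM took the conventional knockout call from Orai1 (adjusted p = 0.0774) and Itpr2 (0.134), as upper-quartile factors did for Itpr2 (0.07). The regulatory call of Orai2 went to adjusted p of 0.0607 with upper-quartile factors, 0.0525 with limma-voom, 0.0788 with no filter and 0.161 with only the groups compared, and that of Orai3 to 0.067 with the last. RLE factors changed no call and no sign, and DESeq2 added 2 calls, Saraf in the regulatory knockout comparison (adjusted p = 0.0499) and Orai2 for the difference. Without the 2 libraries that hold Xist and Y-linked reads, calls were added for Itpr1 between cell types in KO (-0.25), Saraf in the regulatory knockout comparison (-0.42) and Orai2 for the difference (0.28), while Orai2 and Orai3 lost theirs in regulatory cells. Depth left 551 reads or more for each of the 10 genes in every library.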
